A study of Mus musculus with 8 samples.

Results

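The 9 genes described here, Gata1, Klf1, Epor, Ermap, Rhd, Car1, Car2, Slc40a1 and Slc38a5, belong to the red cell lineage or carry iron or amino acids. They are 9 of the 23358 genes in a count table of mouse bone marrow hematopoietic stem cells, and all 9 passed the low-count filter with 14086 genes in all. They were chosen by their fitted changes against wild type in a pair of Huwe1 knockout lines, which had looked opposite, so their differences between groups are given as description, without tests. The libraries were 2 labelled Huwe1 KO (Vav-Cre), 3 labelled Huwe1 KO (Mx1-Cre) and 3 labelled wild type (WT), each from uncultured marrow cells. The sort gate was Lin-Sca+Kit+CD48-CD150+, a combination that enriches stem cells. Vav-Cre is driven by a promoter active throughout blood cells and deletes constitutively, whereas Mx1-Cre deletes upon induction. The labels state no treatment for any sample, name no Cre or induction for WT, and give no age, sex, strain or flox allele. Effects of Cre, induction and Huwe1 loss therefore cannot be told apart. Huwe1 encodes a HECT-type ubiquitin ligase.

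Red cells arise from stem cells through progenitors that depend on the transcription factor GATA1 and, later, on KLF1. GATA1 binds GATA letters and KLF1 binds CACCC-type letters in the control regions of erythroid genes. The hormone erythropoietin acts through its receptor Epor to keep the progenitors alive. Late precursors fill with haemoglobin, carbonic anhydrase and membrane proteins such as the Rh polypeptides. Stem cells hold low levels of some of these transcripts before commitment.

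Totals were 28689765 to 33202926 counts per library, of reads without molecular identifiers. Huwe1 itself lay at 467 ± 32.2 CPM (mean ± SD, n = 2) in Vav-Cre, 418 ± 23.4 (n = 3) in Mx1-Cre and 421 ± 20.5 (n = 3) in WT libraries, and neither line differed from WT in the test (edgeR adjusted p = 0.682 and 0.979). One count per gene does not show the loss of some exons, so groups are called by their labels. All 11 stem cell markers examined, Kit, Ly6a and Procr among them, passed the low-count filter, with a summed level of 3875 to 4091 CPM in Vav-Cre, 2296 to 4266 in Mx1-Cre and 3843 to 4513 in WT libraries. Of them 1 fell in Vav-Cre and 4 fell in Mx1-Cre libraries against WT in edgeR. Of all tested genes 0.319% fell and 0.192% rose in Vav-Cre, and 2.10% fell in Mx1-Cre libraries. These shares also stand beside the marker counts below. Between the lines 2 of the 11 were higher in Vav-Cre than in Mx1-Cre libraries (all tested genes 0.114%). The list's median log2 fold was 0.10 in Vav-Cre, -0.75 in Mx1-Cre and 0.65 between the lines. Nothing in the labels ties each library to an animal of its own, and the tests below therefore reflect the scatter among these libraries, part of which may be technical. In bulk RNA, fewer cells of a type and less RNA per cell cannot be told apart.

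Promoters from RefSeq (build GRCm38.p6, from 250 bases before to 50 after the start site) were matched for 6 of the 9 genes. Those of Rhd, Ermap, Klf1 and Epor are shown because they hold the letters AGATAA or TGATAA, which GATA factors recognise. That of Slc38a5 is shown because this gene had the largest difference between the lines among the 9. It holds neither AGATAA nor TGATAA. The promoters shown are chr4:134864286-134864585 on the plus strand (Rhd), chr4:119189946-119190245 on the minus strand (Ermap), chr8:84901732-84902031 on the plus strand (Klf1), chr9:21963527-21963826 on the minus strand (Epor) and chrX:8271131-8271430 on the plus strand (Slc38a5). Each runs 5′ to 3′ along its gene, and capitals mark AGATAA or TGATAA and the CACCC-type pattern CCNCNCCC, read on either strand, so that TTATCA stands for TGATAA on the other strand.
Rhd: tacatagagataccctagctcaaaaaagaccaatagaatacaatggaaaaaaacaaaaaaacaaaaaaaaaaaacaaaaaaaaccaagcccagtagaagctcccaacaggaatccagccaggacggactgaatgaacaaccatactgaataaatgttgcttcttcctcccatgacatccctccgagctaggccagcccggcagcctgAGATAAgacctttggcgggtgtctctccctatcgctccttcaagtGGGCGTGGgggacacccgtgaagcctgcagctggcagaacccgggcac
Ermap: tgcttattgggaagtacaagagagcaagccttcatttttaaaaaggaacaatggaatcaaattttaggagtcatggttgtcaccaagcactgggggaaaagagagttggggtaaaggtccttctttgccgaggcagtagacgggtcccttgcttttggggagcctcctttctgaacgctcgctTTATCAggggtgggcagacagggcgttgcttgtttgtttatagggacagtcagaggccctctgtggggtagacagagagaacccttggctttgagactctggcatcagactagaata
Klf1: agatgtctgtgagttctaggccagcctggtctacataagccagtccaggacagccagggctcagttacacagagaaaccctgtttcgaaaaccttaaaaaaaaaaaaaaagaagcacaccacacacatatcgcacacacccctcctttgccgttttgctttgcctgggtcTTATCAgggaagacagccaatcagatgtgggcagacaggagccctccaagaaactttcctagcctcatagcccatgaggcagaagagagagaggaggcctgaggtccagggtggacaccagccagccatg
Epor: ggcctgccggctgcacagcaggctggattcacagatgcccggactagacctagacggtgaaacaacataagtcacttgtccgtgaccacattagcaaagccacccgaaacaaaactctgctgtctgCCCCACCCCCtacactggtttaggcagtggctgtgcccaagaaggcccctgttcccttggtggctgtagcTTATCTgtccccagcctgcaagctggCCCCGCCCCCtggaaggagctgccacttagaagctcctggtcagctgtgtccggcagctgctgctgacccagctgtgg
Slc38a5: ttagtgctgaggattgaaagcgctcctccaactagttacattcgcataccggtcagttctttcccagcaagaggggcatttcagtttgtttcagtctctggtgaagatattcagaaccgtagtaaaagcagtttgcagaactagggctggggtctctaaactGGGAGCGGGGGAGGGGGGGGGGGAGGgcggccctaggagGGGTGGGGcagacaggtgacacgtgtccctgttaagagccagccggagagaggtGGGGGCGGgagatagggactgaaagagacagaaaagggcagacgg

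The GATA letters began at base -43 from the start site in Rhd (AGATAA), -54 in Epor (AGATAA), -67 in Ermap (TGATAA) and -80 in Klf1 (TGATAA). Thus 4 of 6 promoters held AGATAA or TGATAA, against 18.6% of the 32851 promoters in the same table. The pattern CCNCNCCC was also in 4 of 6, those of Rhd, Epor, Gata1 and Slc38a5, against 49.5% of all promoters. Its matches overlapped one another in Epor and Slc38a5. Rhd and Epor held both kinds, as did 5.73% of all promoters. These matches describe letters and not binding. Other letters with GATA, such as agatag in Slc38a5, were not searched or counted.

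Across the 9 genes, the Vav-Cre libraries were low and the Mx1-Cre libraries mostly near WT. The fitted log2 fold change against WT was below 0 for 8 of 9 genes in Vav-Cre libraries, with a median of -2.86 beside -0.01 over all tested genes. In Mx1-Cre libraries it was above 0 for 6 of 9, with a median of 0.29 beside 0.01. Of all tested genes, 51.0% had a fold below 0 in Vav-Cre and 51.3% a fold above 0 in Mx1-Cre libraries. The fitted difference, Vav-Cre minus Mx1-Cre, was below 0 for all 9, with a median of -1.66, and for 49.3% of all tested genes. Only 5 of the 9, Klf1, Epor, Ermap, Car1 and Slc38a5, had fitted folds of opposite sign in this order, a pattern found in 17.9% of all tested genes. Gata1, Rhd and Slc40a1 were below WT in both lines and Car2 was above it in both. The lines share the same WT libraries. All of these counts follow from how the genes were chosen.

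**Figure D1:**
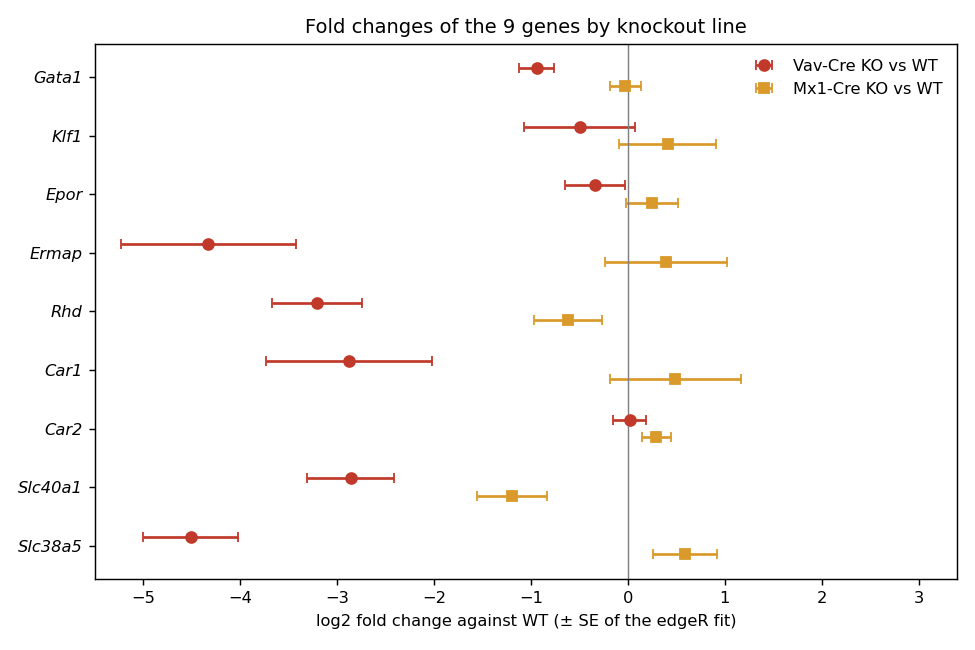
Fitted log2 fold change against WT (horizontal axis, ± SE) of each of the 9 genes in Vav-Cre KO (circles) and Mx1-Cre KO (squares) libraries. Ermap and Slc38a5 lie farthest left in Vav-Cre KO, at -4.33 and -4.51, while in Mx1-Cre KO the lowest value is that of Slc40a1, at -1.20.

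Gata1, the master regulator of the erythroid and megakaryocyte lineages, stood at 56.8 and 58.2 CPM in the Vav-Cre libraries, at 101, 90.9 and 132 in Mx1-Cre and at 98.5, 109 and 123 in WT. Both Vav-Cre libraries were below every other library, and the Mx1-Cre and WT ranges overlapped. The log2 fold change was -0.94 ± 0.18 (SE) in Vav-Cre and -0.03 ± 0.16 in Mx1-Cre libraries. Klf1, the erythroid Krüppel-like factor that switches on adult globin and membrane genes, had 83 and 93 counts in Vav-Cre, 124, 73 and 277 in Mx1-Cre and 67, 157 and 157 in WT libraries. In CPM this was 2.91 and 2.88, then 3.83, 2.65 and 9.83, then 2.21, 5.15 and 4.88, so all 3 groups overlapped. Its fold was -0.50 ± 0.57 in Vav-Cre and 0.41 ± 0.50 in Mx1-Cre libraries. Mx1-Cre 3 was far above the other Mx1-Cre libraries, and without it the Mx1-Cre fold was -0.33.

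Epor lay at 10.2 and 12.0 CPM in Vav-Cre, at 15.1, 11.5 and 23.7 in Mx1-Cre and at 12.5, 13.0 and 16.7 in WT libraries. The Vav-Cre libraries were just below the lowest WT library and overlapped the Mx1-Cre ones. The fold was -0.34 ± 0.31 in Vav-Cre and 0.25 ± 0.27 in Mx1-Cre libraries, and the Mx1-Cre fold was -0.08 without Mx1-Cre 3. For these regulators and the receptor, the difference between lines (Vav-Cre minus Mx1-Cre) was thus small next to that of the membrane and carrier genes below, at -0.91 ± 0.18 for Gata1, -0.91 ± 0.58 for Klf1 and -0.59 ± 0.31 for Epor on the log2 scale.

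Among surface proteins, Ermap encodes an erythroblast membrane protein that carries the Scianna blood group in humans. It had 0 and 72 counts in Vav-Cre, 1118, 798 and 750 in Mx1-Cre and 503, 846 and 784 in WT libraries. The 0 in Vav-Cre 1 allows a level of up to 0.105 CPM (3 counts, counting error only), whereas every Mx1-Cre and WT library had at least 16.6 CPM. Levels were 1.12 ± 1.58 CPM (SD, n = 2) in Vav-Cre, 30.0 ± 4.06 (n = 3) in Mx1-Cre and 22.9 ± 5.72 (n = 3) in WT libraries. The log2 fold was -4.33 ± 0.90 in Vav-Cre and 0.39 ± 0.63 in Mx1-Cre. The Ermap fold was -3.36 without Vav-Cre 1. Without Vav-Cre 2 it was -12.42, a fitted value that rests on a library with 0 counts and is no bound.

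Rhd, the mouse gene for the Rh blood group polypeptide, part of a red cell membrane complex, had 30 and 66 counts (1.05 and 2.05 CPM) in Vav-Cre libraries. It had 271, 190 and 360 counts (8.37, 6.89 and 12.8 CPM) in Mx1-Cre and 284, 482 and 576 (9.38, 15.8 and 17.9 CPM) in WT libraries. The Vav-Cre libraries were separate from both other groups. All 3 Mx1-Cre libraries were below the WT mean of 14.4 CPM, although the groups overlapped. Rhd was therefore lower on average in both lines, with log2 folds of -3.21 ± 0.46 in Vav-Cre and -0.62 ± 0.35 in Mx1-Cre libraries, and the lines differed by -2.59 ± 0.44.

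**Figure D2:**
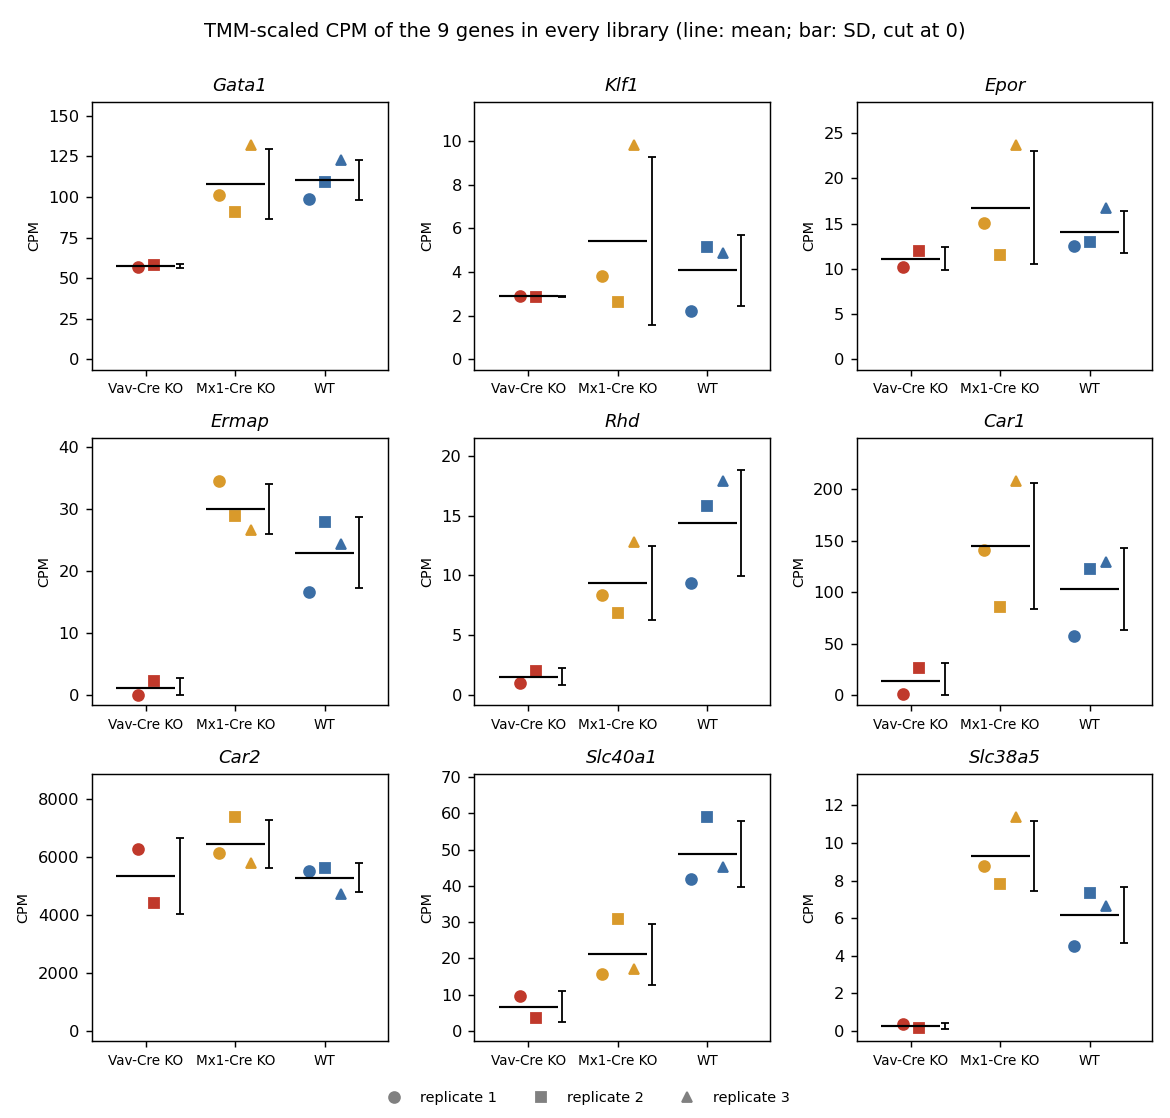
TMM-scaled CPM (vertical axes, linear) of the 9 genes in each library of the Vav-Cre KO, Mx1-Cre KO and WT groups; symbols are replicates, the line is the group mean and the bar the SD, cut at 0. For Ermap, Rhd, Car1, Slc40a1 and Slc38a5 both Vav-Cre KO libraries lie below every other library, for Gata1 they sit near 57.5 CPM, and for Car2 they straddle the WT libraries.

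Carbonic anhydrases interconvert carbon dioxide and bicarbonate. Car1, an abundant enzyme of mature red cells, had 45 and 844 counts (1.58 and 26.2 CPM) in Vav-Cre libraries. It had 141, 85.9 and 208 CPM in Mx1-Cre and 57.2, 122 and 129 CPM in WT libraries. Both Vav-Cre libraries were the lowest of the 8, yet they differed 16.6-fold from each other, and the Mx1-Cre and WT ranges overlapped. The log2 fold was -2.88 ± 0.86 in Vav-Cre and 0.49 ± 0.68 in Mx1-Cre libraries, and the Vav-Cre fold was -1.97 without Vav-Cre 1 and -6.02 without Vav-Cre 2. The size of the Car1 difference thus rested on single libraries, while its sign was negative without either.

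Car2, the fast and widely expressed isoform, behaved differently. It took 0.453 to 0.711% of all counts in every library, with 6276 and 4425 CPM in Vav-Cre, 6149, 7406 and 5814 in Mx1-Cre and 5523, 5630 and 4718 in WT libraries. The Vav-Cre libraries lay on either side of WT and the Mx1-Cre libraries were all slightly above it. The log2 fold was 0.02 ± 0.17 in Vav-Cre, a sign that turned with library totals as the only scaling, and 0.29 ± 0.15 in Mx1-Cre libraries. Per kilobase of exon, the Car2 level was 2051 and 87.2 times that of Car1 in Vav-Cre libraries, against 22.5, 44.4 and 14.4 times in Mx1-Cre and 49.7, 23.8 and 18.8 times in WT libraries. The paralogs Car1, Car2, Car3 and Car13 are close together on chromosome 3, and reads that fit more than 1 of them may have been split or dropped in counting.

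Slc40a1 encodes ferroportin, the exporter that releases iron from cells, including macrophages that recycle red cells. It had 278 and 119 counts (9.74 and 3.69 CPM) in Vav-Cre, 508, 851 and 479 counts (15.7, 30.9 and 17.0 CPM) in Mx1-Cre and 1272, 1801 and 1453 counts (42.0, 59.1 and 45.2 CPM) in WT libraries. The 3 groups did not overlap, with Vav-Cre lowest and WT highest. Ferroportin was the only 1 of the 9 genes below every WT library in both lines, with log2 folds of -2.86 ± 0.45 in Vav-Cre and -1.20 ± 0.36 in Mx1-Cre libraries. Among all tested genes, 17.1% were below every WT library in Vav-Cre and 14.8% in Mx1-Cre libraries. The lines share the WT libraries, and the share of genes below in both is not given.

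Beside ferroportin, markers of marrow macrophages were low in the same libraries. Of 11 markers 10 were tested. In edgeR 0 passed in Vav-Cre (9 had an unadjusted p under 0.05) and 1 fell in Mx1-Cre libraries, with median log2 folds of -2.82 and -0.95. DESeq2 called 6 of them lower in Vav-Cre and 2 lower in Mx1-Cre libraries, and limma-trend 2 and 1. Their summed level ranged over 26.4 to 37.5 CPM in Vav-Cre, 36.0 to 60.7 in Mx1-Cre and 58.4 to 111 in WT libraries. Timd4 and Siglec1 were at 0 in both Vav-Cre libraries and Timd4 in all Mx1-Cre libraries. Cd163 ran the other way, at 20.6, 22.9 and 17.3 CPM in Vav-Cre, Mx1-Cre and WT libraries. The part of macrophage RNA in the Slc40a1 difference was not tested.

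Slc38a5 encodes the amino-acid carrier SNAT5, which moves glutamine, asparagine, histidine and serine. It had 11 and 5 counts (0.385 and 0.155 CPM) in Vav-Cre libraries. It had 284, 215 and 322 counts (8.77, 7.80 and 11.4 CPM) in Mx1-Cre and 137, 224 and 214 counts (4.52, 7.35 and 6.66 CPM) in WT libraries. Slc38a5 was the only 1 of the 9 whose lines were separate from WT in opposite directions, Vav-Cre below and Mx1-Cre above. The log2 fold was -4.51 ± 0.49 in Vav-Cre and 0.59 ± 0.33 in Mx1-Cre libraries, and the lines differed by -5.11 ± 0.50. In Mx1-Cre libraries 10.9% of all tested genes were above every WT library, and in Vav-Cre libraries 17.1% were below. The share of genes with both is not given.

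Over the 9 genes, Vav-Cre libraries were below every WT library for 7 genes, against 17.1% of all tested genes, and below every Mx1-Cre library for 6, against 12.0%. The exceptions against WT were Klf1 and Car2, and against Mx1-Cre Klf1, Epor and Car2. The 2 Vav-Cre libraries were close for Gata1, Klf1 and Epor, differing 1.03-, 1.01- and 1.18-fold. No gene of the 9 was above every WT library in Vav-Cre, against 15.6% of all tested genes. The Vav-Cre libraries were far apart for Car1 and for Ermap, in both of which Vav-Cre 1 was lower, and for Slc40a1 and Slc38a5 Vav-Cre 2 was lower, by 2.64- and 2.49-fold.

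Within groups the libraries kept an order over many of these genes. WT 1 had the lowest WT level for 8 of the 9, Car2 being the exception. Mx1-Cre 3 had the highest Mx1-Cre level for 6 of the 9 (Gata1, Klf1, Epor, Rhd, Car1 and Slc38a5), and Mx1-Cre 2 the lowest for the same 6 genes. Mx1-Cre 3 also held the least summed stem cell marker RNA, at 2296 CPM against 3025 and 4266 in Mx1-Cre 1 and 2. The part of this in the erythroid levels was not tested.

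**Figure D3:**
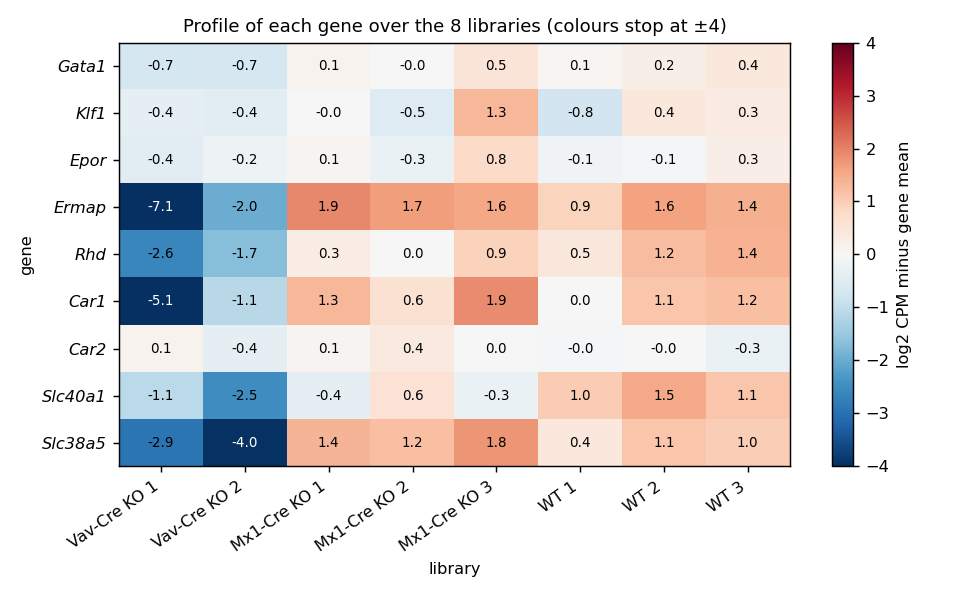
Log2 CPM of each of the 9 genes (rows) in the 8 libraries (columns) minus the gene's own mean, with the value printed in each cell; red is above and blue below the mean. Vav-Cre KO 1 and 2 are blue in all rows except Car2, Mx1-Cre KO 3 is the reddest Mx1-Cre KO column for Klf1, Epor and Car1, and the value for Ermap in Vav-Cre KO 1, which had 0 counts, depends on the prior count of 2.

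Levels were compared between genes only per kilobase of exon, with exon lengths from GENCODE M21 on GRCm38, which is not the mm9 build of the counts. In WT libraries Car2 stood at 2184 ± 206 CPM per kb (SD, n = 3), then Car1 at 82.3 ± 31.7 and Gata1 at 45.2 ± 5.10, whose ranges overlapped. Rhd (9.02 ± 2.79), Epor (7.09 ± 1.14), Slc40a1 (5.42 ± 1.01), Ermap (4.33 ± 1.08), Slc38a5 (2.76 ± 0.658) and Klf1 (2.67 ± 1.06) followed, each overlapping the next. In Vav-Cre libraries the order was Car2, Gata1, Car1, Epor, Klf1, Rhd, Slc40a1, Ermap and Slc38a5. Gata1 was 23.6 ± 0.420 there (n = 2) and separate from Car1 at 11.1 ± 13.9, and Slc38a5 was last at 0.121 ± 0.0727 CPM per kb. In Mx1-Cre libraries Car1 (116 ± 48.9, n = 3) was second to Car2 and Slc40a1 (2.35 ± 0.935) was last.

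To ask whether the rest of the erythroid programme showed similar differences, 8 lists with 138 other genes in the table were examined, of which 120 were tested, with p-values adjusted over all 14086 genes. In Vav-Cre libraries 2 rose and 2 fell against WT (3.33%), where 0.511% of all tested genes were called. In Mx1-Cre libraries 1 rose and 2 fell (2.50%, all tested 2.49%, of which falls 2.10%). Between the lines 0 were higher and 2 lower in Vav-Cre (1.67%, all tested 0.170%, of which lower in Vav-Cre 0.0568%). The median log2 folds of the 120 genes were -0.01, -0.01 and -0.02, and 27, 21 and 30 of the genes had an unadjusted p under 0.05. The share of all tested genes at an unadjusted p under 0.05 is not given. Such counts, for lists and markers alike, therefore cannot be read as an excess. DESeq2 called 17, 10 and 11 of the 120 genes, and 599, 1042 and 468 of all 14086. The Vav-Cre count of 4 was 2 without WT 1, Mx1-Cre 1 or Vav-Cre 2, 1 without WT 2 or 3, and 7 without Mx1-Cre 2. The Mx1-Cre count of 3 was 0 without WT 1, 2 or 3 or Mx1-Cre 1 and 1 without Mx1-Cre 2. The count of 2 between lines was 1 without WT 2 or 3 or any 1 Mx1-Cre library and 6 without Vav-Cre 1.

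Red cell membrane genes held both falls that edgeR called in Vav-Cre libraries. Of 21 tested, 2 fell, Add2 among them, and 19 did not pass (7 had an unadjusted p under 0.05). DESeq2 called 5 lower and limma-trend 3 lower in Vav-Cre libraries. In Mx1-Cre libraries edgeR called 0, DESeq2 1 lower and limma-trend 0. Between the lines edgeR called 2 lower in Vav-Cre, DESeq2 5 lower and 1 higher, and limma-trend 2 lower. The list's median was -0.47 in Vav-Cre and -0.03 in Mx1-Cre libraries. Add2, which encodes the beta subunit of adducin, a protein that joins spectrin to actin, had 2 and 5 counts in Vav-Cre, 222, 217 and 152 in Mx1-Cre and 105, 205 and 151 in WT libraries. In CPM these were 0.0701 and 0.155, then 6.86, 7.87 and 5.39, then 3.47, 6.73 and 4.70. Add2 was near 0 in Vav-Cre libraries, and its Mx1-Cre and WT ranges overlapped. The edgeR test called it against WT (-5.39 ± 0.56, adjusted p = 0.00615) and against Mx1-Cre (-5.83 ± 0.57, adjusted p = 0.00726), and whichever library was left out.

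Rhag, the Rh-associated partner of the Rh polypeptide, did not pass and had a positive Vav-Cre fold (0.58 ± 0.37). Its level was 18.1 and 50.7 CPM in Vav-Cre, 17.7, 24.8 and 21.3 in Mx1-Cre and 18.9, 20.9 and 29.3 in WT libraries. Vav-Cre 2 was above and Vav-Cre 1 below every WT library, so the sign of the Rhag fold rests on Vav-Cre 2. Slc4a1, the band 3 anion exchanger, was at 1.15 CPM or less in each group's mean and did not pass.

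**Figure D4:**
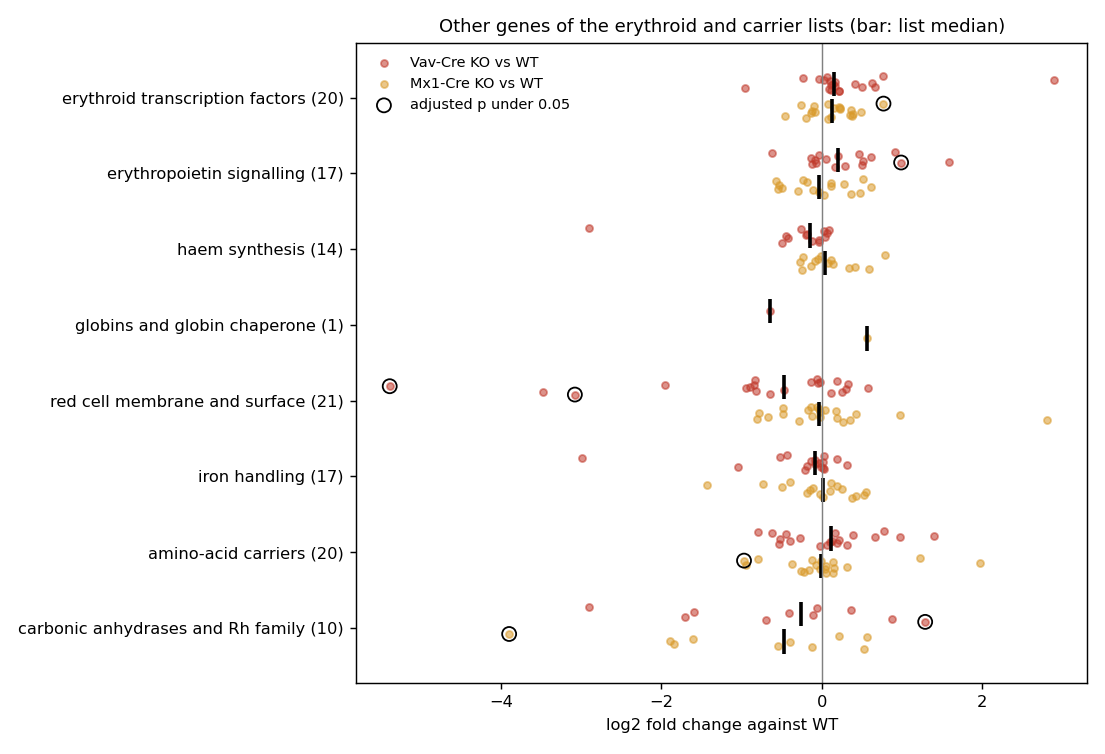
Log2 fold change against WT (horizontal axis) of the tested genes of each list (number in brackets) in Vav-Cre KO and Mx1-Cre KO libraries; bars are list medians and open circles mark an adjusted p under 0.05. Red cell membrane genes spread farthest to the left in Vav-Cre KO, where Add2 (-5.39) is circled, and the medians of the transcription factor lists are at 0.15 and 0.13.

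Of 20 other erythroid transcription factor genes, 17 had positive and 3 negative Vav-Cre folds, where 51.0% of all tested genes had a fold below 0. Several of the positive folds were smaller than their SE, those of Tal1, Zfpm1 and Myb among them. Of the 20, 0 passed in Vav-Cre in edgeR (6 had an unadjusted p under 0.05, DESeq2 called 3 and limma-trend 1), with a median log2 fold of 0.15, and 1 rose in Mx1-Cre libraries. That was Nfia, which encodes a nuclear factor I protein, with 443 and 360 CPM in Vav-Cre, 424, 466 and 319 in Mx1-Cre and 266, 236 and 209 in WT libraries. Both lines were above WT for Nfia (0.76 ± 0.18, edgeR adjusted p = 0.104 in Vav-Cre, and 0.77 ± 0.17, edgeR adjusted p = 0.0430 in Mx1-Cre). The Mx1-Cre call was lost without WT 1, 2 or 3 or Mx1-Cre 1 or 2 (edgeR adjusted p up to 0.191) and with library totals only. Gata2, the GATA factor of stem and progenitor cells, averaged 584 CPM in Vav-Cre, 482 in Mx1-Cre and 367 in WT libraries (0.67 ± 0.23 and 0.39 ± 0.21). Gfi1b, a repressor needed in red cell and platelet precursors, averaged 153, 215 and 297 CPM (-0.96 ± 0.19 and -0.46 ± 0.17, edgeR adjusted p = 0.0631 and 0.192). Tal1 (0.22 ± 0.40), the GATA1 cofactor gene Zfpm1 (0.09 ± 0.49), Nfe2 (0.50 ± 0.12), Myb (0.11 ± 0.16) and Spi1, listed as Sfpi1 (-0.03 ± 0.33), did not pass in Vav-Cre libraries.

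Of 17 erythropoietin signalling genes tested, 1 rose in Vav-Cre and 0 passed in Mx1-Cre libraries in edgeR (5 had an unadjusted p under 0.05, DESeq2 called 2 and limma-trend 0). Socs2, a STAT5-induced inhibitor of cytokine signalling, lay at 76.4 and 80.0 CPM in Vav-Cre, 40.3, 29.2 and 39.9 in Mx1-Cre and 40.2, 35.8 and 42.0 in WT libraries. Its Vav-Cre libraries were above all others (0.99 ± 0.18, edgeR adjusted p = 0.0440), and against Mx1-Cre it just missed (1.10 ± 0.18, edgeR adjusted p = 0.0503). The call against WT was lost without WT 1, 2 or 3, Mx1-Cre 1, or either Vav-Cre library, with edgeR adjusted p up to 0.229, and with library totals only (0.0504). Epor's partners Jak2 (0.17 ± 0.16) and Stat5a (0.29 ± 0.17) did not pass in Vav-Cre, nor did the stem cell factor receptor gene Kit (0.20 ± 0.30).

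Of 14 haem synthesis genes tested, 0 passed in either line in edgeR, with 3 in Vav-Cre and 0 in Mx1-Cre libraries at an unadjusted p under 0.05, and medians of -0.15 and 0.04. DESeq2 called 1 lower in Vav-Cre and 0 in Mx1-Cre libraries, and limma-trend 0 in both. Alas2, the erythroid enzyme of the first step, averaged 5.37 CPM in Vav-Cre, 8.22 in Mx1-Cre and 5.47 in WT libraries. Among globins only the adult beta gene listed as Beta-s was tested, at 16.6 and 26.8 CPM in Vav-Cre, 79.9, 39.3 and 30.3 in Mx1-Cre and 36.6, 34.8 and 30.3 in WT libraries. Vav-Cre was the lowest group for it, and it did not pass (-0.64 ± 0.37, edgeR adjusted p = 0.496). Hba-a1 and Hbb-b1 are listed at 0 in all 8 libraries. Globin copies are nearly identical, so their counts are uncertain.

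Among iron handling genes other than ferroportin, 0 of 17 passed in either line in edgeR (2 in Vav-Cre and 4 in Mx1-Cre libraries at an unadjusted p under 0.05). DESeq2 called 2 lower in Vav-Cre and 2 higher in Mx1-Cre libraries, and limma-trend 1 lower in Vav-Cre and 0 in Mx1-Cre. The transferrin receptor gene Tfrc, which brings iron in, averaged 61.5 CPM in Vav-Cre, 92.7 in Mx1-Cre and 71.0 in WT libraries. Its folds were -0.21 ± 0.14 and 0.38 ± 0.12. The ferritin heavy chain gene Fth1, for iron storage, averaged 1504, 1493 and 1513 CPM, a difference smaller than its SE in both lines. Of 20 other amino-acid carriers, 0 passed in Vav-Cre in edgeR, DESeq2 or limma-trend (edgeR gave 3 an unadjusted p under 0.05) and 1 fell in Mx1-Cre libraries. Slc43a2, a carrier of large neutral amino acids, lay at 10.3 and 13.2 CPM in Vav-Cre, 9.48, 10.2 and 8.09 in Mx1-Cre and 18.7, 17.4 and 18.3 in WT libraries (-0.97 ± 0.20 in Mx1-Cre, edgeR adjusted p = 0.0357). Both lines were below WT, and the Mx1-Cre call was lost without WT 1, 2 or 3 or Mx1-Cre 1 or 3, with edgeR adjusted p up to 0.143. The relatives of Slc38a5 had Vav-Cre folds of -0.02 ± 0.13 for Slc38a1 and 0.06 ± 0.16 for Slc38a2. Slc7a5 (-0.52 ± 0.32), its heavy chain Slc3a2 (0.39 ± 0.21) and the glutamine carrier gene Slc1a5 (0.13 ± 0.16) did not pass.

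Of 10 tested carbonic anhydrase and Rh family genes, Car3 rose in Vav-Cre and Rhbg fell in Mx1-Cre libraries. Car3, known from muscle and fat, is a neighbour of Car1 and Car2 and was highest in the group where Car1 was lowest. Within groups this varied. Vav-Cre 2 had more Car1 and Car3 than Vav-Cre 1, and WT 1 the least of both in WT, while in Mx1-Cre their orders were opposite. Car3 lay at 31.5 and 38.5 CPM in Vav-Cre, 20.6, 22.3 and 19.0 in Mx1-Cre and 11.2, 17.3 and 14.4 in WT libraries. The 3 groups were separate (1.29 ± 0.22 in Vav-Cre, edgeR adjusted p = 0.0376; without WT 1, 2 or 3, Mx1-Cre 1 or Vav-Cre 2 up to 0.155). Rhbg, an ammonia channel of epithelia, had 8 and 6 counts in Vav-Cre, 3, 1 and 6 in Mx1-Cre and 37, 60 and 67 in WT libraries (-3.90 ± 0.78 in Mx1-Cre, edgeR adjusted p = 0.0306; without WT 1, 2 or 3 or Mx1-Cre 1 or 2 up to 0.136). Car13, also beside Car1, did not pass in either line (0.36 ± 0.30 and 0.56 ± 0.27).

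The genes with the most similar profile over the 8 libraries were found by the mean absolute difference of log2 CPM after centring, among 11283 genes. Among the 5 nearest to the mean of the 9 were Fosb (0.35 log2 units), Hmgn2 (0.42), Ubash3a (0.44) and Serpine2 (0.44), with a median of 0.93 over all candidates. Nearest to both Ermap (0.76) and Slc38a5 (0.44) was Add2. Nearest to Gata1 was Cotl1 (0.07), to Klf1 Gp5 (0.18), to Epor Nagpa (0.10), to Car1 Cldn13 (0.34) and to Car2 Mad1l1 (0.05). Among the 9 themselves Gata1 and Epor (0.24) and Klf1 and Epor (0.30) were the closest pairs, followed by Epor and Car2 (0.36). Over all candidates the median distance was 0.41 from Gata1, 0.57 from Klf1 and 0.35 from Epor. The most distant pair was Ermap and Car2 (2.22).

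Nearest to Slc40a1 was Hmox1 (0.31), the enzyme that breaks haem down and frees its iron. Hmox1 lay at 2.77 and 0.961 CPM in Vav-Cre, 2.25, 10.1 and 4.15 in Mx1-Cre and 14.0, 20.7 and 9.74 in WT libraries. As with ferroportin, Vav-Cre was lowest on average and WT highest, and within the Mx1-Cre group replicate 2 was highest for both genes. Hmox1 did not pass (-2.99 ± 0.69, edgeR adjusted p = 0.0948 in Vav-Cre, and -1.43 ± 0.55, edgeR adjusted p = 0.221 in Mx1-Cre).

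**Figure D5:**
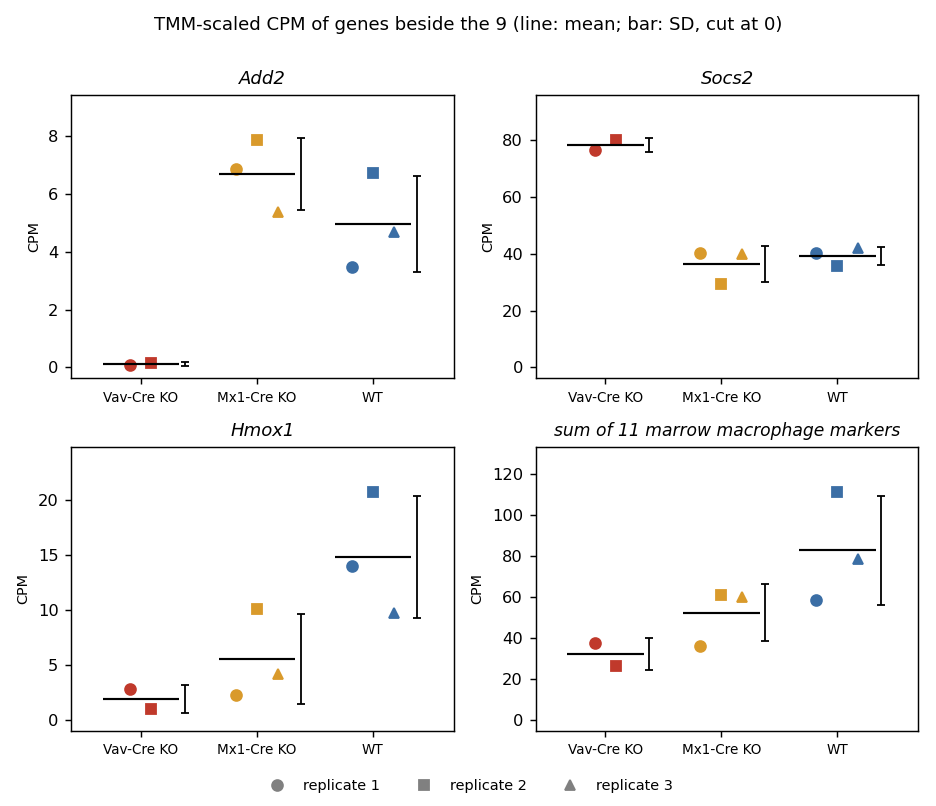
TMM-scaled CPM (vertical axes, linear) of Add2, Socs2 and Hmox1 and the sum of 11 marrow macrophage markers in each library of the Vav-Cre KO, Mx1-Cre KO and WT groups; symbols are replicates, the line is the mean and the bar the SD, cut at 0. Add2 is near 0 and Socs2 highest in Vav-Cre KO, while Hmox1 and the macrophage sum average lowest in Vav-Cre KO, at 1.86 CPM for Hmox1, and highest in WT, at 14.8 CPM for Hmox1.

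Markers of other cells differed between the same libraries. Megakaryocyte and platelet markers, a lineage that also uses GATA1, summed to 633 and 1156 CPM in Vav-Cre 1 and 2, 854 to 1216 in Mx1-Cre and 1073 to 1298 in WT libraries. Of the 11 tested, 0 passed in Vav-Cre in edgeR (5 had an unadjusted p under 0.05, DESeq2 called 2 and limma-trend 0) and 1 fell in Mx1-Cre libraries. The list's median log2 fold was -0.48 in Vav-Cre libraries. The Vav-Cre 2 sum holds 264 CPM of Selp, which was at 16.2 CPM in Vav-Cre 1 and 6.53 to 33.4 in WT libraries. Gp6 was at 0 throughout. Mast cell and basophil markers summed to 18.3 and 242 CPM in Vav-Cre 1 and 2, 33.8 to 44.6 in Mx1-Cre and 18.5 to 20.8 in WT libraries. In edgeR 1 of 7 was higher in Vav-Cre, Fcer1a, at 2.00 and 209 CPM in Vav-Cre 1 and 2. The list's median log2 fold was -1.33 in Vav-Cre libraries, and Prss34, Cma1 and Tpsab1 were at 0 there. Mature neutrophil markers summed to 6.90 and 281 CPM in Vav-Cre 1 and 2, 99.4 to 571 in Mx1-Cre and 321 to 1155 in WT libraries, with 0 of 9 called in either line in edgeR (2 and 0 at an unadjusted p under 0.05, DESeq2 2 and 0, limma-trend 1 and 0). Vav-Cre 1, the library with the lowest Ermap and Car1, had the lowest megakaryocyte and neutrophil sums of the 8 libraries. Its mast cell sum was close to those of WT, but the single markers went both ways. Cpa3 and Fcer1a, at 14.3 and 2.00 CPM, were above every WT library. Hdc, Mcpt8, Ms4a2 and Il1rl1, at 1.30, 0, 0.21 and 0.455 CPM, were below every WT library. B cell markers summed to 74.2 and 35.9 CPM in Vav-Cre 1 and 2, 56.6 to 78.1 in Mx1-Cre and 65.1 to 89.8 in WT libraries. Most of the B cell sum was Cd79b in every library, at 70.6 and 33.8 CPM in Vav-Cre 1 and 2. T and NK cell markers summed to 57.0 and 97.2 CPM in Vav-Cre 1 and 2, 91.0 to 123 in Mx1-Cre and 108 to 170 in WT libraries. Most of the T and NK cell sum was Nkg7 in every library, at 52.7 and 90.1 CPM in Vav-Cre 1 and 2. Cd3e, Cd3g, Cd8a and Ncr1 were at 0 in both Vav-Cre libraries, and Cd3e, Cd8a and Ncr1 in all Mx1-Cre libraries. Endothelial and stromal markers summed to 96.4 and 99.7 CPM in Vav-Cre 1 and 2, 57.1 to 80.9 in Mx1-Cre and 127 to 160 in WT libraries. Vav-Cre 2, the library with the lowest Slc40a1 and Slc38a5, had the lowest macrophage and B cell sums of the 8 libraries, and its neutrophil sum was below every WT library. The part of these other cells in the erythroid levels was not tested.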

How the data were processed

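RNA-seq counts of 8 libraries of sorted mouse stem cells were used, grouped by their titles. The deposited count table holds raw counts per gene symbol, as whole numbers, and the deposited CPM table covers 12457 genes. Scaling the counts by library totals gave its values back with deviations of no more than 5.1e-15 of each value. A SMARTer low-input kit and an unstranded protocol were used, per the labels' protocols. The submitters' processing notes list HTSeq, TopHat, SAMtools and edgeR, and the build mm9. Tool versions, annotation and counting mode: not given in the sources used here. Antisense and overlapping transcripts therefore cannot be told apart from their genes.

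Counts were fitted with edgeR 4.0.16 (R 4.3.3, quasi-likelihood, filterByExpr with minimum count 10 and minimum total 15, TMM) in 1 model of group over all 8 libraries, with Benjamini-Hochberg adjustment over 14086 genes and calls at an adjusted p under 0.05. CPM are TMM-scaled. SE is the absolute log2 fold over the square root of F. The prior count for log2 CPM was 2. The chi-square per gene between libraries of a group was 27.5 to 127, so none was taken for a repeat. Intervals and floors cover counting error only.

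The 9 genes, the lists and the tests were chosen with earlier results of these data known. Named genes were the 9, up to 4 called genes per list with the smallest p, 26 genes named by hand and the nearest profiles. Of these 26, Ahsp was not matched, and of 141 list genes 138 were found, 7 of them by an older symbol. Tspo2, Sptb, Kel and Steap3 are outside it: they, and the single markers named, were picked once their values were known. Some genes under this rule are not reported here. Alternatives were DESeq2 1.42.0, its size factors, library totals, other filters (none, or 1 CPM in 3 libraries), limma-trend (limma 3.58.1) on deposited CPM with a pseudocount of 1, a fit of the 2 compared groups alone, a replicate block and leaving out each library.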

Additional observations from a re-analysis of the deposited data

Results flagged for a closer look

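Results were set apart here where the Vav-Cre and Mx1-Cre lines differed in their change against WT. Ermap had both Vav-Cre libraries below and all 3 Mx1-Cre libraries above the WT mean, with a log2 difference between the lines of -4.72, and Slc38a5 likewise, with -5.11. Both genes were picked for this pattern and the difference was not tested. Add2 (-5.83, edgeR adjusted p = 0.00726) was lower in Vav-Cre than in Mx1-Cre libraries by a test of the difference itself.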

How the results depend on the processing

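With 2 Vav-Cre libraries, the size of a Vav-Cre fold often rests on 1 of them. In Vav-Cre against WT, the count of called genes (72 over all genes, 4 in the lists) was 174 and 8 without a low-count filter, 599 and 17 by DESeq2, 146 and 8 by limma-trend, 111 and 8 with only the 2 groups fitted, and 5 to 196 and 1 to 7 with a library left out. In Mx1-Cre against WT (351 and 3), it was 1042 and 10 by DESeq2, 604 over all genes by limma-trend and 575 with only the 2 groups fitted, and 58 to 565 and 0 to 3 with a library left out. Between the lines (24 and 2), it was 81 and 4 without a filter, 468 and 11 by DESeq2, 3 and 1 with only the 2 groups fitted, and 3 to 412 and 1 to 6 with a library left out. The cause was not tested. The labels do not say that replicate numbers pair libraries. Correlations of same-numbered deviations from the group means were -0.0705 to 0.129, and not every library correlated best with its own number. The deviations of the 2 Vav-Cre libraries mirror each other, so these correlations cannot decide whether libraries were paired. With the replicate block the counts were 20 and 2 in Vav-Cre, 235 and 1 in Mx1-Cre and 9 over all genes between the lines, and Socs2, Car3, Slc43a2 and Rhbg did not pass (edgeR adjusted p 0.0607 to 0.0959). Of the 9 genes, Car2 in Vav-Cre turned to -0.01 with library totals, -0.02 by limma-trend and -0.06 with the replicate block, and ran from -0.26 to 0.25 with a library left out. In Mx1-Cre, Gata1 ran from -0.20 to 0.10, Klf1 from -0.33 to 0.76 and Epor from -0.08 to 0.47. The other folds of the 9 kept their sign under all alternatives.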

Other observations

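Some further erythroid genes of the lists had low Vav-Cre levels without passing the test. They were picked with their values known. Tspo2, which encodes an erythroid translocator protein, had 4 and 18 counts in Vav-Cre, 86, 92 and 220 in Mx1-Cre and 32, 124 and 91 in WT libraries (-2.90 ± 0.82 in Vav-Cre against WT, edgeR adjusted p = 0.156). Sptb, the red cell beta spectrin gene, had 15 and 9 counts in Vav-Cre, 97, 9 and 123 in Mx1-Cre and 162, 139 and 116 in WT libraries (-3.48 ± 0.92, edgeR adjusted p = 0.131), so that Mx1-Cre 2 was as low as Vav-Cre 2.

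Kel, the gene of a blood group antigen, lay at 2.45 and 2.6 CPM in Vav-Cre, 10.9, 7.22 and 10.7 in Mx1-Cre and 2.64, 6.73 and 5.20 in WT libraries. Every Mx1-Cre library was above all WT libraries, as for 10.9% of all tested genes. Both Vav-Cre libraries were below them, as for 17.1%, but Vav-Cre 2 only just below WT 1 (84 and 80 raw counts). The share of genes with both is not given. The difference between the lines was -1.92 ± 0.43 (edgeR adjusted p = 0.133). Steap3, a ferrireductase of erythroid iron uptake, lay at 15.1 and 8.34 CPM in Vav-Cre, 26.1, 39.9 and 38.4 in Mx1-Cre and 27.7, 22.3 and 22.5 in WT libraries, with a difference between the lines of -1.57 ± 0.30 (edgeR adjusted p = 0.0748).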
